A study of Canis lupus familiaris with 12 samples.

Results

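Heme is built by a chain of enzymes that begins and ends in the mitochondrion, and 8 genes of that chain are described here in dog PBMCs (peripheral blood mononuclear cells, the lymphocytes and monocytes of blood). They are ALAS1 and ALAS2, the housekeeping and the erythroid form of 5-aminolevulinic acid synthase, and the later enzymes ALAD, UROS, UROD, CPOX, PPOX and FECH. The rule that takes them is a list of names, and all 8 were found among the 29822 genes of each deposited table. All 8 passed the filter on low counts, for exon reads and for intron reads. The donors were male beagles, healthy and free of specified pathogens, and their cells were purified by density gradient and cultured in a serum-containing RPMI medium. Reagents were present for 24 h before harvest. The 4 groups were untreated cells, cells with 1.0 mM 5-aminolevulinic acid (ALA), cells with 0.5 µg/ml of the T cell mitogen concanavalin A (ConA, a lectin of plant origin), and cells with both (ConA+ALA). Each group holds 3 libraries, numbered 1 to 3 in the titles, 12 in all. The labels do not say how many dogs gave blood, whether a number stands for a dog, or the animals' age. The p-values of the main model therefore cover only how far the 3 libraries of a group differ, which may be technical. Where the library number is added to the model as a block, they cover what is left after differences between numbers are removed. That remainder may be technical too.

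ALA synthase joins glycine to succinyl-CoA and sets the pace of the pathway. In most cells the ALAS1 form is held down by heme, the end product, whereas ALAS2 is used by developing red cells and is controlled by iron. ALA supplied from outside enters the pathway after this step. ALAD then condenses ALA into porphobilinogen in the cytosol. UROS closes the ring as uroporphyrinogen III, UROD removes carboxyl groups from its side chains, CPOX and PPOX oxidise the product to protoporphyrin in the mitochondrion, and FECH inserts iron.

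The coordinates below are those of the deposited tables, on CanFam3.1. ALAS1 (ENSCAFG00000009881) lies on chromosome 20 from 37552814 to 37566638 on the reverse strand, and its 14 exons sit wholly inside POC1A, a gene of the forward strand. ALAS2 (ENSCAFG00000014308) lies on chromosome X from 46703477 to 46723529 with 9 exons. ALAD is on chromosome 11 (67741390 to 67752321), UROS on 28 (34948003 to 34983532), CPOX on 33 (5447414 to 5459461) and FECH on 1 (18345811 to 18383092). UROD on chromosome 15 (15312674 to 15320010) overlaps HECTD3, and PPOX on chromosome 38 (21306974 to 21311012) lies inside B4GALT3. The overlapping partner is on the opposite strand in all 3 cases, and it is not stated whether counting used strand. At least 98.3% of the exon reads of each of the 8 genes were unique to that gene. Of the intron reads of ALAS1 and PPOX, however, 0% were unique, so it is not known how many stem from POC1A and B4GALT3. The deposited intron counts per library were 666 to 5015 for ALAS1 and 158 to 348 for POC1A. They were 10 to 87 for PPOX and 136 to 241 for B4GALT3.

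The libraries held 13390692 to 21517099 exon reads. Reads in introns made up 29.1 to 43.3% of the reads in genes, and mitochondrial genes took 3.59 to 23.35% of exon reads. T cell, B cell and monocyte markers were all detected in untreated cells, with summed levels of 1508 to 2658, 1588 to 2735 and 1175 to 1670 CPM (exon reads divided by TMM-scaled library size). In ConA the monocyte markers summed to 482 to 821 CPM, and 6 of 13 tested were lower by the test used throughout, or 12 with the library number as a block. T cell markers summed to 1006 to 1586 CPM in ConA, with 5 of 14 lower and 1 higher, or 11 and 1 with the block. B cell markers summed to 1442 to 2490 CPM in ConA, with 2 of 10 lower, or 8 with the block. Over all genes tested, 8.57% were lower and 9.93% higher with ConA, or 21.2% and 21.3% with the block. In such mixed cells, fewer cells of a type and less RNA per cell cannot be told apart.

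ALAS1 was the most abundant of the 8 messages in every group. Genes were compared with each other on the deposited TPM scale, which divides by exon length. The median of ALAS1 over the 12 libraries was 354 TPM and that of ALAS2 was 82.7 TPM. The later enzymes stood far lower, with medians of 26.7 TPM for UROD, 22.0 for PPOX, 15.1 for UROS, 14.6 for ALAD, 14.5 for CPOX and 8.82 for FECH. ALAS1 lay above ALAS2 without overlap of libraries in all 4 groups. ALAS2 in turn lay above the next gene without overlap in untreated, ALA and ConA+ALA cells, while in ConA its libraries (20.2 to 47.3 TPM) spanned the range of UROD (27.8 to 34.4 TPM). Among the later enzymes, neighbours in the order overlapped in all groups, except that UROD lay wholly above PPOX in ConA.

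The ratio of ALAS1 to the later enzymes is given as a description, with no test. The TPM of ALAS1 divided by the summed TPM of the 6 later enzymes was 1.84 to 8.53 in untreated libraries. It was 2.43 to 2.77 with ALA, 7.45 to 10.3 with ConA, and 2.46 to 3.89 with both. The untreated range takes in those of ALA and ConA+ALA and overlaps that of ConA, whereas the ConA range lies above both groups with ALA. The sum of the later enzymes itself covered similar ranges, from 93.4 to 152 TPM in untreated cells and from 86.1 to 158 TPM in ConA. The ratio of ALAS1 to ALAS2 was 17.9 to 58.1 in ConA and 2.57 to 10.1 in untreated cells.

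**Figure D1:**
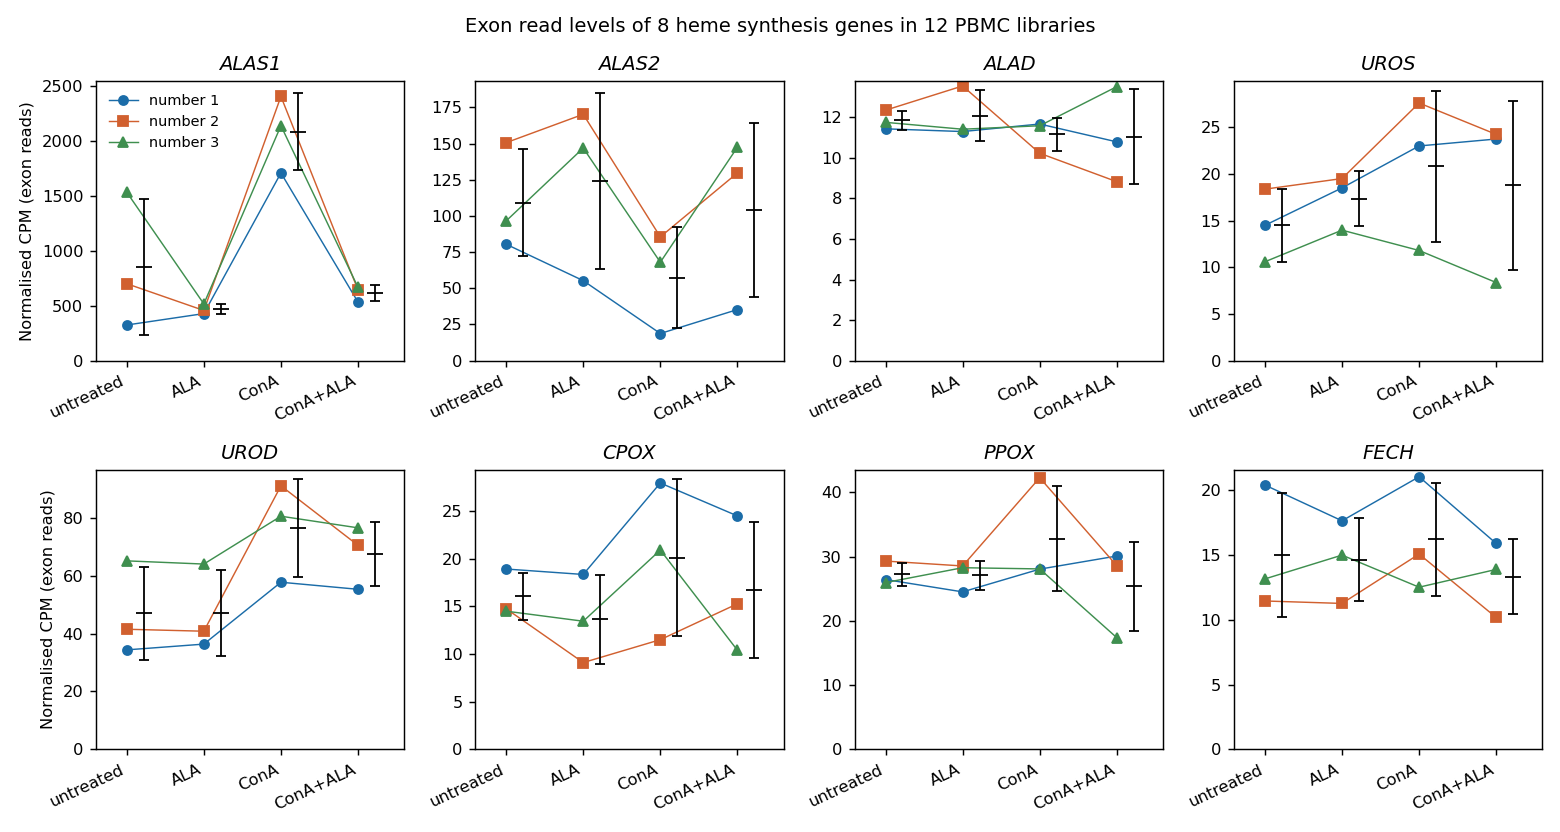
Exon read levels of the 8 genes. The vertical axes give normalised CPM on a linear scale from 0, points are single libraries joined by their number, and black bars are the mean ± SD of 3 libraries. The 3 ConA libraries of ALAS1 lie at 1709 to 2405 CPM and the 6 libraries with ALA at 428 to 667 CPM.

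ConA alone was accompanied by a higher level of ALAS1. In libraries 1, 2 and 3, ALAS1 stood at 324, 701 and 1534 CPM in untreated cells and at 1709, 2405 and 2139 CPM in ConA. All ConA libraries were above all untreated ones, and the 3 untreated libraries differed among themselves by 4.73 times. The mean was 853 ± 619 CPM untreated and 2085 ± 351 CPM with ConA (SD, n = 3 each). The fitted log2 fold change was 1.29 ± 0.43 (SE), with an adjusted p of 0.055 by edgeR's quasi-likelihood test. With the library number as a block, the change was 1.45 ± 0.37 with an adjusted p of 0.016, so that ALAS1 rose in that model. Within numbers the ratio of ConA to untreated was 5.27, 3.43 and 1.39, the smallest where untreated cells were already high. Leaving out untreated library 3 raised the change to 2.02 (adjusted p = 0.0042). The blocked call was lost without number 2 (adjusted p = 0.16), and over all alternatives the adjusted p ran from 3.2e-05 to 0.41.

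ALAS2 went the other way in exon reads. Untreated libraries 1, 2 and 3 held 80.5, 151 and 96.6 CPM, and ConA libraries held 18.8, 85.5 and 68.0 CPM. ConA was the lower in each of the 3 numbers, but the groups overlapped because number 1 was low throughout. The fitted change was −0.93 ± 0.62 (SE) with an adjusted p of 0.34 without the block, and −1.19 ± 0.30 with an adjusted p of 0.010 with it, which counts as a fall in the blocked model. Without number 2 the blocked adjusted p was 0.071, within a range of 0.0013 to 0.62 over all alternatives. Leaving out ConA library 1 brought the unblocked change to −0.51.

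Other red cell transcripts were low in the same libraries. The red cell marker list has 25 genes, 19 of them in the files, and its summed level without ALAS2 was 191 to 241 CPM untreated and 109 to 184 CPM in ConA. Of its 16 tested members, which include ALAS2, 3 were lower with ConA, and 8 in the blocked model. Over all genes, 8.57% were lower, and 21.2% in the blocked model. HBM, a globin of the alpha family, stood at 44.8, 109 and 118 CPM untreated and at 10.4, 80.1 and 78.7 CPM in ConA. The defining marker SLC4A1, the red cell anion exchanger, was at or below 1.71 CPM in all 12 libraries, and CA1 was at 0 in the ALA and ConA+ALA groups. Their part in the ALAS2 result was not tested.

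Of the later enzymes, UROD was the one called with ConA in the blocked model. Untreated libraries 1, 2 and 3 held 34.4, 41.5 and 65.1 CPM, and ConA libraries held 57.8, 91.1 and 80.6 CPM. ConA was higher in all 3 numbers, by 1.68, 2.19 and 1.24 times, although the lowest ConA library lay under the highest untreated one. The log2 change was 0.70 ± 0.29 (SE, adjusted p = 0.12), and 0.73 ± 0.16 with the block (adjusted p = 0.0015), where UROD rose. Over all alternatives the adjusted p was 0.00067 to 0.56.

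The remaining later enzymes did not pass the test with ConA in either model. ALAD, the first enzyme that uses ALA, was nearly flat at 11.8 ± 0.47 CPM untreated and 11.2 ± 0.81 CPM with ConA (SD, n = 3), a log2 change of −0.08 ± 0.22 (SE). UROS had a log2 change of 0.52 ± 0.41, and of 0.47 ± 0.21 with the block (adjusted p = 0.089), with ConA the higher in all 3 numbers. CPOX changed by 0.33 ± 0.39, PPOX by 0.27 ± 0.24 and FECH, the iron-inserting enzyme, by 0.11 ± 0.30 on the log2 scale. FECH was 20.4, 11.4 and 13.1 CPM in untreated libraries and 21.0, 15.1 and 12.5 CPM with ConA, with ratios within numbers of 1.03, 1.32 and 0.951.

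Set against all genes, the ConA counts were not large. Without the block, 0 of the 8 genes passed by edgeR while 18.5% of the 13358 genes tested did. At an unadjusted p under 0.05 there were 2 of 8 (ALAS1 and UROD), against 4302 of the 13358 genes. DESeq2 and limma-voom each called 1, and their shares over all genes are not reported here. With the block, 3 of 8 passed where 42.5% of all genes did. Libraries of the ConA group lay wholly above the untreated ones for 1 of the 8 (ALAS1), against 17.3% of all genes. The median log2 change of the 8 was 0.30, beside −0.05 over all genes. On plain library sizes without TMM factors, the median over all genes moved to −0.31 and the change of ALAS1 to 1.11, of UROD to 0.44, of ALAS2 to −1.31 and of PPOX to −0.037, which turns the direction of PPOX.

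**Figure D2:**
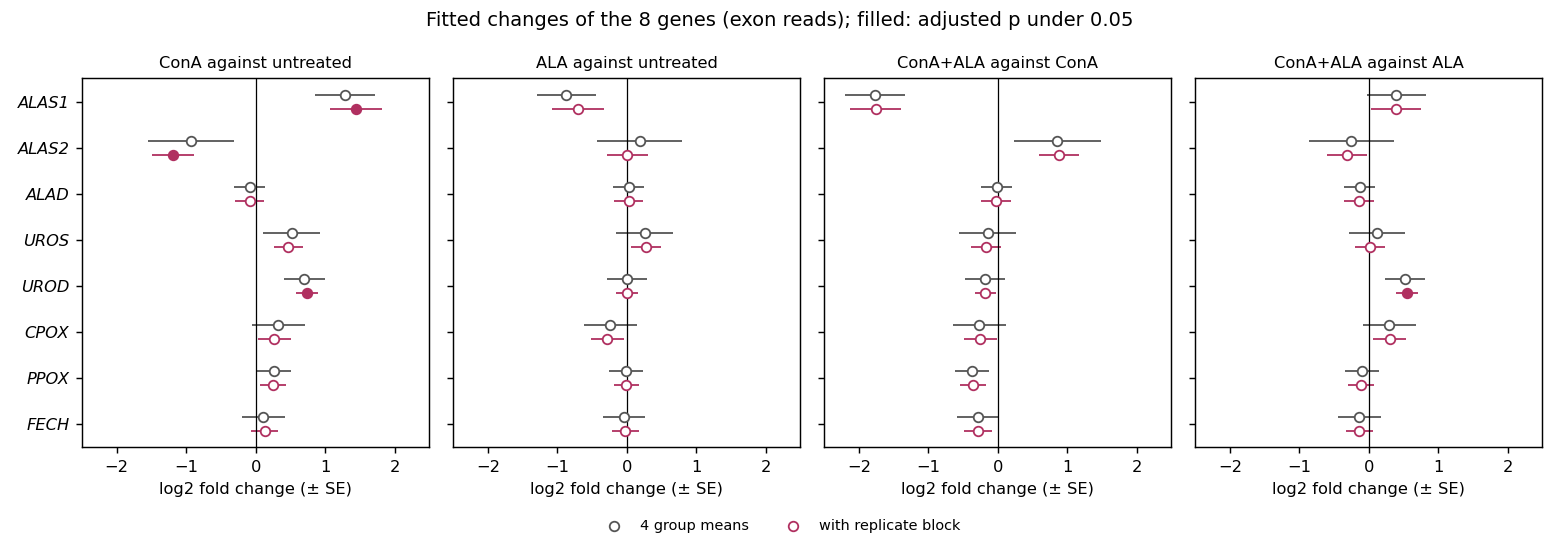
Fitted log2 fold changes (± SE) of the 8 genes in exon reads, in 4 comparisons, with 4 group means (grey) and with the replicate block (red). Filled points have an adjusted p under 0.05. Those are ALAS1 (1.45), ALAS2 (−1.19) and UROD (0.73) for ConA and UROD (0.55) for ConA+ALA against ALA, all in the blocked model.

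The addition of ALA to ConA-treated cells asks whether supplied precursor changes the pathway's own genes during activation. ALAS1 in libraries 1, 2 and 3 was 1709, 2405 and 2139 CPM in ConA and 533, 643 and 667 CPM in ConA+ALA. No library of one group reached the other. The means were 2085 ± 351 and 614 ± 71.6 CPM (SD, n = 3), and ConA exceeded ConA+ALA by 3.21, 3.74 and 3.21 times within numbers 1, 2 and 3. These ratios were far more even than those for ConA against untreated cells. The log2 change was −1.76 ± 0.43 (SE), but the adjusted p over all genes was 0.56, and 0.12 with the block. DESeq2 gave an adjusted p of 0.014. In the blocked model without number 1 the adjusted p was 0.028, and without number 3 it was 0.0056, where the range over all alternatives was 0.0056 to 1. An exact permutation test of ALAS1 alone gave p = 0.1 (two-sided), the smallest that 3 against 3 libraries allow.

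Neither edgeR model called any of the 8 genes in that comparison, in which 0% of all genes passed without the block and 0.554% with it. At an unadjusted p under 0.05 there was 1 of 8 without the block (ALAS1), against 445 of all 13358 genes, and limma-voom called 0. ConA+ALA lay wholly below ConA for 1 of the 8, ALAS1, against 3.69% of all genes. Summed neutrophil markers, 8 of 10 of which are in the files, stood at 75.9 to 155 CPM in ConA and at 658 to 2408 CPM in ConA+ALA. MMP9, a secreted protease that monocytes can also make, held most of that difference, at 50.3, 29.9 and 117 CPM in ConA and 784, 570 and 2324 CPM in ConA+ALA. The other 7 markers summed to 38.7 to 46.2 CPM in ConA and 83.7 to 93.4 CPM in ConA+ALA. CXCR2 was the marker at 0 in both groups. Summed monocyte markers were 482 to 821 and 514 to 899 CPM. Their part in the ALAS1 difference was not tested.

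ALAS2 had the opposite sign when ALA joined ConA. It was 18.8, 85.5 and 68.0 CPM in ConA and 35.3, 129.7 and 148 CPM in ConA+ALA, higher by 1.88, 1.52 and 2.17 times within numbers 1, 2 and 3. The log2 change was 0.86 ± 0.62 (SE), and 0.88 ± 0.29 with the block (adjusted p = 0.33). Red cell markers without ALAS2 summed to 109 to 184 CPM in ConA and 126 to 333 CPM in ConA+ALA. The log2 changes of the later enzymes were all below 0, from −0.37 ± 0.24 for PPOX to −0.02 ± 0.22 for ALAD, with adjusted p-values of 1. UROD in particular stayed at 55.3, 70.5 and 76.6 CPM, against 57.8, 91.1 and 80.6 CPM in ConA alone.

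ALA given to resting cells left no called change among the 8. ALAS1 was 324, 701 and 1534 CPM untreated and 428, 457 and 517 CPM with ALA. Number 1 was higher with ALA (1.32 times), whereas numbers 2 and 3 were lower, with ratios of 0.652 and 0.337. The ALA libraries thus lay close together, the highest 1.21 times the lowest, against 4.73 times among untreated libraries. The log2 change was −0.87 ± 0.42 (SE, adjusted p = 1), and −0.70 ± 0.37 with the block. Without untreated library 3 it was −0.13 ± 0.32, and without untreated library 1 it was −1.26 ± 0.32.

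The other 7 genes had log2 changes between −0.23 ± 0.39 (CPOX) and 0.26 ± 0.41 (UROS) under ALA. ALAD was 11.8 ± 0.47 CPM untreated and 12.1 ± 1.27 CPM with ALA, and UROD was 47.0 ± 16.1 and 47.1 ± 14.9 CPM (SD, n = 3). FECH was 15.0 ± 4.75 and 14.6 ± 3.20 CPM. By edgeR, 0 of 8 passed with or without the block, where 0% and 0.0449% of all genes passed. At an unadjusted p under 0.05 there were 0 of 8, against 155 of all 13358 genes without the block. DESeq2 had 1 of 8 at that level and after adjustment called 0, as did limma-voom. The shares of all genes by DESeq2 and limma-voom are not reported here.

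With ALA present in both arms, ConA was accompanied by a small difference in ALAS1. The ConA+ALA libraries (533, 643 and 667 CPM) lay wholly above the ALA libraries (428, 457 and 517 CPM), by 1.24, 1.41 and 1.29 times within numbers. The log2 change was 0.39 ± 0.42 (SE, adjusted p = 0.65, and 0.47 with the block). ConA+ALA lay wholly above ALA for 14.9% of all genes. The difference between the 2 ConA responses of ALAS1, with and without ALA, was −0.89 ± 0.60 on the log2 scale (SE, adjusted p = 1), and −1.06 ± 0.52 with the block (adjusted p = 0.71). A smaller response with ALA was thus not established. The value was −0.51 without untreated library 1 and −1.63 without untreated library 3, and the adjusted p over all alternatives was 0.097 to 1.

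UROD was called in the blocked model with ALA present as well. It was 36.4, 40.8 and 64.0 CPM with ALA and 55.3, 70.5 and 76.6 CPM with both, higher by 1.52, 1.73 and 1.2 times. The log2 change was 0.52 ± 0.29 (SE, adjusted p = 0.32), and 0.55 ± 0.16 with the block (adjusted p = 0.015). That call was lost in the blocked model without number 1 (adjusted p = 0.086), without number 2 (0.10) and on library sizes without TMM factors (0.051), in a range of 0.0077 to 0.74 over all alternatives. UROD was the 1 gene of 8 called with the block, where 30.1% of all genes were, and 0 of 8 passed without it, where 8.12% of all genes did. At an unadjusted p under 0.05 there were 0 of 8 without the block, against 3079 of all 13358 genes, and DESeq2 and limma-voom called 0. For the interaction of ALA with ConA, 0 of 8 passed in either model by edgeR, at an adjusted or an unadjusted p under 0.05. After adjustment 0% of all genes did, and without adjustment 222 of 13358 did, or 1004 with the block. DESeq2 and limma-voom called 0 as well.

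Reads in introns come largely from RNA that has not been spliced. For ALAS2 they moved against the exon reads. Libraries 1, 2 and 3 held 36, 19 and 16 intron reads of ALAS2 in the untreated group. The counts were 41, 23 and 27 for ALA, 101, 92 and 71 for ConA, and 97, 42 and 50 for ConA+ALA. Scaled by library, ConA libraries had 10.9, 10.9 and 8.49 CPM of intron reads against 3.99, 1.93 and 1.59 CPM untreated. The groups did not overlap, and ConA was 2.73, 5.63 and 5.35 times higher within numbers. Intron reads of FECH (ConA higher) and of PPOX (ConA lower, none of the reads unique to PPOX) did not overlap either. How many of all genes did so was not counted for intron reads, so these cases are not set against all genes. In exon reads, ConA lay wholly above untreated for 17.3% of all genes and wholly below for 18.0%. The intron level of ALAS2 rose with ConA by 2.01 ± 0.49 on the log2 scale (SE, adjusted p = 0.028 by edgeR), and by 2.11 ± 0.38 with the block (adjusted p = 0.00035). The unblocked call was lost in several alternatives: without untreated library 2 (0.11) or 3 (0.10), without ConA library 1 (0.071) or 2 (0.081), without number 2 (0.39) or 3 (0.21), with the compared groups only (0.073), and without TMM factors (0.061). The range over all alternatives was 0.00035 to 0.39. ALAS2 was the 1 gene of 8 called in intron reads, where 7.3% of the 15305 genes tested were called, and 32.5% with the block.

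With ALA present, ALAS2 intron reads showed a similar direction. They were 4.15, 2.26 and 2.83 CPM with ALA and 11.1, 5.06 and 6.77 CPM with both, a log2 change of 1.31 ± 0.48 (SE, adjusted p = 0.23), and 1.29 ± 0.37 with the block (adjusted p = 0.019). In that comparison 1 of 8 was called with the block, where 20.8% of all genes were, and 0 of 8 without it, where 1.52% were. In the blocked model the call was lost when number 1 (0.14), 2 (0.098) or 3 (0.054) was left out. At an unadjusted p under 0.05 there was 1 of 8 without the block, against 2068 of all 15305 genes, and DESeq2 and limma-voom called 0. The exon reads of ALAS2 changed by −0.25 ± 0.61 in the same comparison (log2, SE, adjusted p = 0.87 by edgeR). With the block the exon change was −0.32 ± 0.29 (adjusted p = 0.46). Exon ratios of ConA+ALA to ALA within numbers 1, 2 and 3 were 0.638, 0.762 and 1.00, so the exon level was not lower in number 3. ALA itself was not followed by a called change of intron reads in any of the 8 genes, alone or beside ConA, by edgeR with or without the block, DESeq2 or limma-voom. For ALA against untreated 0% of all genes passed without the block and 0.0327% with it, and for ConA+ALA against ConA 0.0131% and 0.712%. At an unadjusted p under 0.05 there were 0 of 8 in both comparisons without the block, against 141 and 409 of all 15305 genes.

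Intron reads made up 0.809% of the reads in ALAS2 in the lowest library and 17.2% in the highest. A model of exon and intron reads together, with a term for each library, was added after these values were seen, so that it puts a size on the difference and is no independent test of it. The change of ALAS2 with ConA in intron reads minus that in exon reads was 3.18 ± 0.93 (log2, SE, adjusted p = 0.43). With the library number as a block on the intron terms, it was 3.30 ± 0.25 with an adjusted p of 8.8e-07. Over 17 alternatives the adjusted p ran from that value to 1, and 2 passed. Of the 8 genes, 3 were called in that blocked model (ALAS2, ALAS1 and PPOX), against 9.06% of 12052 genes, and 0 of 8 without the block, against 0% of all genes. For ALAS1 and PPOX, whose log2 values were −1.07 and −1.09, none of the intron reads were unique to the gene. How many of them stem from the gene on the other strand is not known. Without the block 1 of 8, ALAS2, had an unadjusted p under 0.05, against 696 of all 12052 genes.

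**Figure D3:**
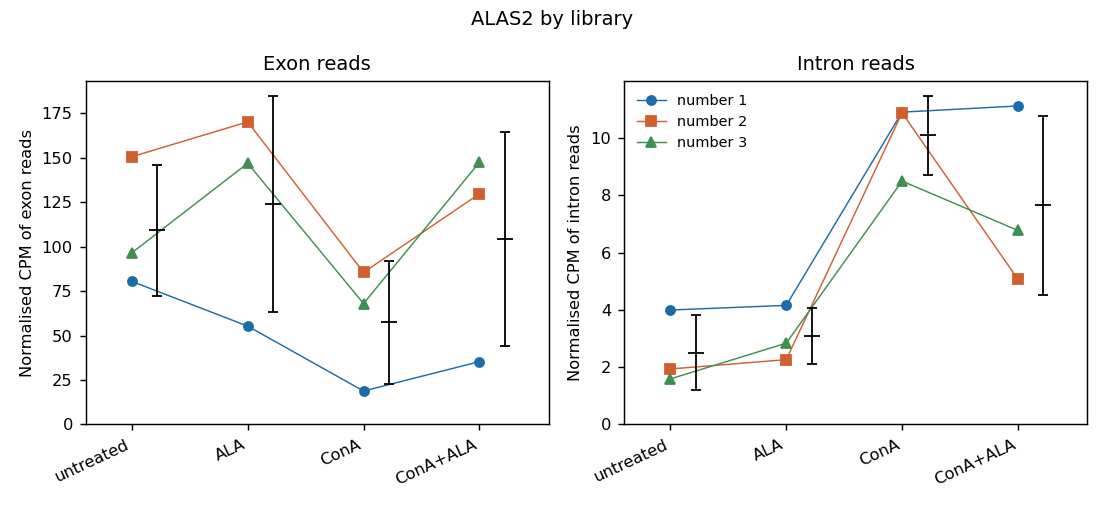
ALAS2 in exon reads (left) and in intron reads (right), as normalised CPM on linear axes that differ in scale. Points are libraries joined by number, and black bars are the mean ± SD of 3 libraries. With ConA alone, against untreated cells, the exon level is lower within every number and the intron level is higher within every number.

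Intron reads of the other genes had no called change. The log2 changes with ConA were 0.43 ± 0.35 for UROD, 0.44 ± 0.57 for UROS, 0.17 ± 0.39 for CPOX, 0.31 ± 0.26 for FECH and −0.60 ± 0.54 for ALAD. FECH had the largest share of intron reads over all libraries, 40.3% of its reads in the gene, followed by CPOX with 35.0% and UROS with 33.3%.

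The 8 genes differed in whether treatment or library number went with their spread. For ALAS1, 74.5% of the sum of squares of log2 CPM over 12 libraries lay between the 4 groups and 11.9% between the 3 numbers. UROD came next with 52.1% between groups and 37.0% between numbers. For ALAS2, UROS, CPOX, PPOX and FECH the number held more than the group, with 61.9, 73.5, 56.8, 31.6 and 73.5% of the spread. These shares were not tested. They are not corrected for there being 4 groups and 3 numbers, so some share arises without any effect. FECH averaged 18.6 CPM in number 1, 11.9 in number 2 and 13.6 in number 3 (geometric means over the 4 groups), and UROS averaged 19.6 and 22.1 CPM in numbers 1 and 2 and less in number 3. ALAD varied least, with an SD of 0.17 in log2 CPM over all libraries, and 75.4% of that spread went with neither.

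**Figure D4:**
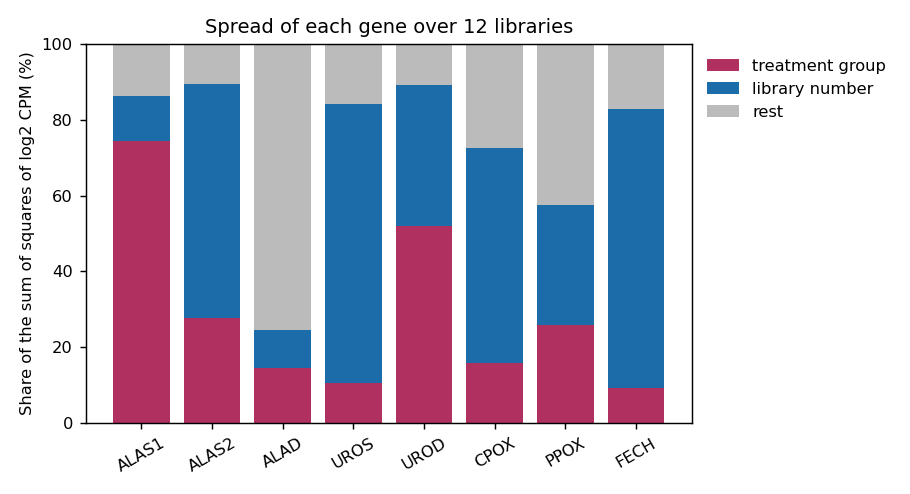
Share of each gene's spread over 12 libraries, as percent of the sum of squares of log2 CPM, that lies between treatment groups (red), between library numbers (blue) and in the rest (grey). The group share is 74.5% for ALAS1 and 9.32% for FECH.

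Profiles were compared with those of 10074 named genes that averaged 20 exon reads or more, by the root mean square difference of centred log2 CPM over 12 libraries. ALAS1 was followed most closely by RBPMS (0.37), MARCKSL1 (0.41) and KMO (0.43), where the profile of ALAS1 itself has a root mean square of 0.94. For ALAS2 they were MIOX (0.15), AHSP (0.25), which encodes the alpha-hemoglobin stabilising protein of red cells, and PRRT1 (0.29), against 0.91 for ALAS2 itself. The 3 nearest to UROD were UFM1, CASP6 and TOX4 (0.12 to 0.13, against 0.45).

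Genes around the pathway were counted from lists by function. Of 15 tested genes that supply or move ALA and its substrates, 3 rose with ConA and 0 fell, where 9.93% of all genes rose and 8.57% fell. They were SHMT2, which makes glycine in the mitochondrion (log2 change 2.65), LONP1, a mitochondrial protease (1.0), and SUCLG1, a subunit of succinyl-CoA synthetase (0.65). With the block, 6 rose and 1 fell, where 21.3% of all genes rose and 21.2% fell. SLC25A38, the mitochondrial glycine carrier, changed by 0.70 ± 0.29 (SE, adjusted p = 0.12, and 0.0023 with the block). Of 8 tested genes of iron-sulfur cluster assembly, which FECH depends on for its cluster, BOLA3 rose (1.04), in the blocked model too.

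Of 12 tested genes of heme use, export and breakdown, 2 fell with ConA (8.57% of all genes fell), the biliverdin reductase BLVRB (−1.45) and the porphyrin exporter ABCG2 (−2.23). With the block, 3 rose and 4 fell (21.3% and 21.2% of all genes). HMOX1, the heme-degrading oxygenase, was 202, 177 and 60.8 CPM untreated and 93.0, 33.3 and 65.5 CPM with ConA. Of 13 tested regulators, KLF1, an erythroid transcription factor, fell (−1.77), and with the block 1 rose and 2 fell. With ALA in both arms, ConA went with 2 rises among the supply genes (SHMT2 by 2.15 and LONP1 by 0.75) and 2 falls among those of heme use and breakdown (BLVRB, −1.24, and BLVRA, −0.84), and 0 calls in the other lists, where 5.09% of all genes rose and 3.03% fell. With the block, 5 supply genes and 2 of iron-sulfur assembly rose, 2 of heme use and breakdown rose and 4 fell, and 1 regulator rose and 1 fell, where 15.8% of all genes rose and 14.3% fell. TFRC, the transferrin receptor that brings in iron, was 10.2 to 28.8 CPM untreated and 51.9 to 183 CPM with ConA, without overlap. ConA lay wholly above untreated for 17.3% of all genes. With ALA, alone or beside ConA, edgeR called 0 of the 48 tested genes of these 4 lists in either model. Without the block, only BLVRA, the other biliverdin reductase, had an unadjusted p under 0.05 for ALA, where 155 of all 13358 genes did. For ConA+ALA against ConA, BLVRA and BLVRB did, where 445 of all genes did. With the block, 2 of the 48 did for ALA and 6 for ConA+ALA against ConA, where 837 and 1311 of all genes did. BLVRA had log2 changes of 0.80 ± 0.22 for ALA and 0.61 ± 0.22 for ConA+ALA against ConA (SE, adjusted p = 1 for each).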

How the data were processed

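Poly(A) RNA of 12 canine PBMC cultures was sequenced on an Illumina instrument, per the labels. CanFam3.1 and bcl2fastq are named in the submitters' processing notes. Aligner and counter are not given in the sources used. Total exon, intron and gene reads, used as deposited by the authors, are raw counts. TPM, the authors' normalization per exon length and library, was used only to compare genes.

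Members and lists were chosen with earlier results of these data known. The test was edgeR 4.0.16's robust quasi-likelihood F-test (R 4.3.3, TMM, filterByExpr) on 1 model of 4 group means fitted to 12 libraries, with Benjamini-Hochberg adjusted p under 0.05 over 13358 genes (exon reads) or 15305 (intron reads). SE is the change divided by the square root of F. Same-numbered libraries deviated together from their group means (18 pairs, correlations 0.376 to 0.748, all above the threshold of 0.1, against −0.498 to 0.206 in 36 other pairs), so the numbers in the titles pair the libraries, and a blocked model (number as a block term) stands beside results it changes. Coefficients of biological variation were 0.422, and 0.217 with the block. On simulated data in the unblocked design, 57.5% of 4-fold and 0% of 2-fold changes were recovered for exon reads. For intron reads, 52.5% and 0% were. The simulation changed 200 genes and gave all genes the same spread, whereas 2471 genes were called with ConA in the unblocked data.

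Named were all 8 members, HMOX1, TFRC, up to 4 genes of each described list by smallest unadjusted p, and the 3 most alike profiles. HBM, SLC4A1, CA1, CXCR2 and MMP9 were named after their values were seen. 1 gene the rule names is not reported here. Alternatives were DESeq2 1.42.0, limma-voom (limma 3.58.1), RLE size factors, no filter, mitochondrial genes left out, unique exon reads, total gene reads, a fit of the compared groups only, and leaving out single libraries or numbers. All of these were fitted without the library number as a block, so they leave out the pairing as the main model does. Junction reads, unique intron reads, library sizes without TMM factors, the blocked model without each number, and the joint exon and intron model were added after the data were seen. Python 3.11.15 made summaries and figures.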

Additional observations from a re-analysis of the deposited data

How the results depend on the processing

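Depth limits the intron results, since ALAS2 had 16 to 101 intron reads per library. In the simulated unblocked design with 3 libraries a group, 0% of 2-fold changes were recovered. That simulation sets no limit for these data, where smaller changes, such as that of SUCLG1 with ConA, were called. The number of the 8 genes called for ConA in exon reads was 0, and became 3 with the replicate block, 3 with the block on library sizes without TMM factors, 3 with the block on junction reads, and 1 each with DESeq2, limma-voom, no filter and total gene reads. It was 0 to 4 when single libraries or numbers were left out, with or without the block. For ConA+ALA against ConA it was 0, 1 with DESeq2, and 0 to 1 with libraries or numbers left out. For ConA+ALA against ALA it was 0, 1 with the replicate block, 1 with the block on junction reads, and 0 to 1 with libraries or numbers left out. In intron reads the count for ConA was 1, became 0 with the compared groups only and 0 without TMM factors, and was 0 to 1 with libraries or numbers left out. For ConA+ALA against ALA it was 0, and 1 with the replicate block, with or without TMM factors. The block changed no other call of the 8 genes in exon or intron reads. With ConA, 18.5% of all genes were called in exon reads without the block and 42.5% with it. For the alternatives other than the replicate block, shares of all genes are not reported here. Their counts for the 8 genes are therefore not set against all genes.

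Of 3004 recomputed log2 changes of single genes, 11 turned direction beyond 1 SE of 0 in at least 1 of the estimates compared. A further 237 changed sign with both estimates within 1 SE of 0. PPOX with ConA (0.27) became −0.037 without TMM factors and −0.031 with the block added, a scaling that moved the median of all genes from −0.05 to −0.31, about as far as PPOX. Over all alternatives, whose turned values came from leaving out libraries or numbers, the interaction of CPOX in exon reads ranged from −0.47 to 0.45. In intron reads, the ranges were −0.15 to 1.18 for ALAS1 with ConA, −1.56 to 0.12 for ALAS1 in ConA+ALA against ConA, −0.67 to 0.56 for UROS in ConA+ALA against ALA, and −1.32 to 0.36 for the interaction of ALAS1. The intron minus exon value of UROS with ConA ranged from −0.44 to 0.51. None of these was called in the model reported, and the cause was not tested.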
